A study of Arabidopsis thaliana with 12 samples.

Results

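The 268 probe sets described here were selected on replicate 1: they are those whose signal fell at least 2-fold with heat in Col-0, in Ws and in QK seedlings, out of 18465 on the table. The measure is the heat change, which is log2(signal + 16) of the heated array minus that of the control array of the same line and replicate, and a member has a heat change of -1 or lower in each of the 3 lines. Before leaving out, 272 probe sets (1.47% of the table) passed. Of 6 genes named for leaving out, 4 had passed (AT4G13580, AT4G32460, SBT4.12 and AT5G54370) and 2 had not (PYK10 and JAL33). The annotation gives exactly 1 gene for 117 members, several genes for 7 and no gene for 144. The 117 are 117 different genes, and genes are named only from them.

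RNA came from whole Arabidopsis thaliana seedlings, 7 days old, of the accessions Col-0 and Ws and of the QK mutant, which is known from the literature to lack the heat shock factors of class A1, with mutant alleles from both accessions. Controls were kept at 22 °C on MS medium at 0.5 strength with 1% sucrose, and heat groups had a further 1 h at 37 °C. Each of the 6 groups has 2 arrays from biological replicates, 12 arrays in all, and the labels do not say how many seedlings made a sample or whether both replicates of a line share a seed lot. QK is a single mutant line of mixed background, so a difference from Ws or Col-0 can come from the mutations or from the background.

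The median signal of an array was 75.6 at the lowest and 87.3 at the highest, and single signals reached 18418. The pair of arrays labelled Col-0 replicate 2 goes against its labels. Of the 268 members, 264 were brighter in the array labelled heat than in the array labelled control (background 52.8% of all probe sets), and 160 at least 2-fold so (background 2.87%), with a median heat change of 1.14 as labelled. The groups were kept as labelled, and the comparison of lines is given with and without this pair. The heat results below do not use it, except for 1 alternative fit of all replicate 2 arrays at the end. Of 16 root markers listed, 5 were on the table. The dimmest, XTH21, lay between 9.6 and 17.1, below the median of every array, so its detection is not shown. Of 12 shoot markers 1 was on the table, RCA, the activase of the carbon-fixing enzyme Rubisco, at 8543.4 or more in every array. The markers of seeds and of dividing cells had 0 genes found by name on the table. The annotation gives no gene for many probe sets (144 of the 268 members), so a marker not found can still have a probe set on the arrays.

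In a heated plant cell, heat shock factors switch on chaperone genes within minutes, while many other mRNAs become scarcer, through less transcription and through decay of existing mRNA. The proteins that shape a growing seedling are largely made for the cell surface: pectin methylesterases and pectate lyases modify the pectin of the wall, expansins and xyloglucan enzymes loosen and rejoin it, and subtilases and aspartyl proteases process proteins there. Receptor-like kinases read signals at the membrane. These statements are background.

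The members were lower after heat again in replicate 2, whose arrays had no part in choosing them. The median heat change of the 268 members was -1.26 in Ws and -1.28 in QK in replicate 2, where the medians over all probe sets were -0.02 and 0.01. In Ws 196 of 268 members were at least 2-fold lower (background 3.48%), and in QK 192 were (background 3.68%). In both lines together 159 were, or 59.3% of the members, against 340 probe sets or 1.84% of the table. A further 37 met the threshold in Ws alone, 33 in QK alone and 39 in neither. The heat change was below 0 in both lines for 265 members (background 36.1%). At least 4-fold lower in both lines were 7 members (background 0.0704%).

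**Figure D1:**
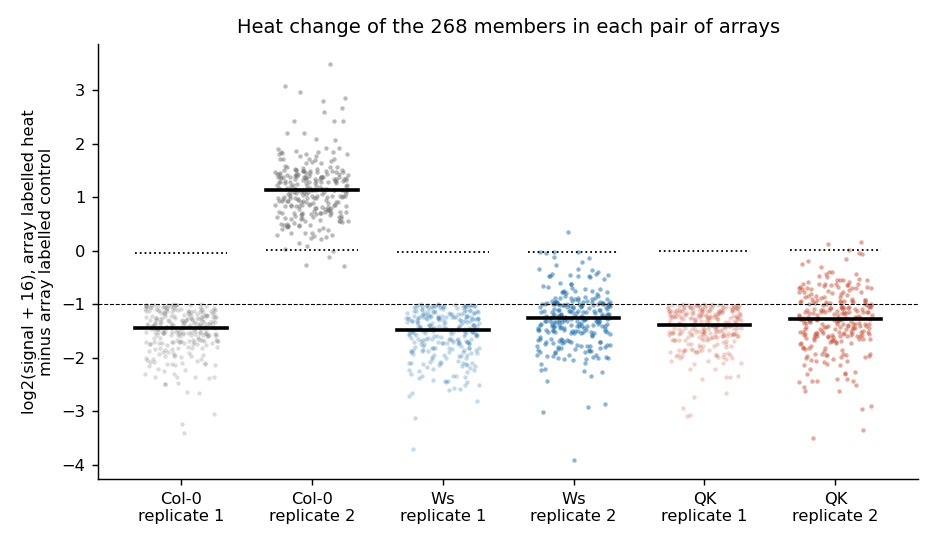
Heat change, log2(signal + 16) of the array labelled heat minus the array labelled control, of the 268 members (points) in each line and replicate; thick bars are member medians, dotted lines the medians of all probe sets, and the dashed line the threshold of -1. Replicate 1 lies below -1 by the choice of the members, replicate 2 of Ws and QK has medians of -1.26 and -1.28, and the pair labelled Col-0 replicate 2 lies on the other side of 0 with a median of 1.14.

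The choice of members sets the replicate 1 values, so these are a description: their medians were -1.44 in Col-0, -1.47 in Ws and -1.38 in QK. Just inside the threshold lay AT5G19090, with heat changes of -1.0 in Col-0, -1.56 in Ws and -1.49 in QK, and AT5G11420, with -1.54, -1.03 and -1.0. Just outside lay ATMPK8, a MAP kinase, with a highest value of -0.9994, and ARPN with -0.9975. In replicate 2 AT5G19090 had -1.01 in Ws and -1.82 in QK, AT5G11420 had -1.31 and -1.67, ATMPK8 had -0.76 and -0.50, and ARPN had -0.81 and -1.74. The neighbours of the threshold thus did not divide cleanly in QK, where ARPN, outside the rule, had a lower value than AT5G11420, inside it.

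The probe sets at least 2-fold lower in both lines of replicate 2 were not all members. Members made up 159 of these 340, or 46.8%, the genes left out 4 more that had passed in replicate 1, and the remaining 177 had missed the rule. Of the 177, 93 had passed in 2 of the 3 lines in replicate 1, 51 in 1 line and 33 in none. Of the 93, 58 had missed the threshold in QK, 19 in Col-0 and 16 in Ws. Most of these misses, of whatever distance from the threshold, were thus in QK. Over all probe sets QK also had the smallest share at least 2-fold lower in replicate 1, 3.38%, against 4.39% in Col-0 and 4.51% in Ws.

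A limma fit of the heat effect common to Ws and QK, on the 4 arrays of replicate 2, tested 13631 probe sets, and all 268 members passed its filter on dim probe sets. Each line has 1 pair there, so the residual is the difference in heat response between the lines, not a spread between replicates of a line. With 1 residual degree of freedom, it called 1 probe set lowered (0.00734%) and 28 raised at an adjusted p under 0.05 and 2-fold. The lowered one was a member, 262427_s_at, a probe set without a gene name here (log2 change -3.18, SE 0.15, limma adjusted p = 0.0435). Its signal went from 797.8 to 84.3 in Ws and from 675.1 to 52.1 in QK. For the other members the adjusted p missed the threshold. Its median over members was 0.0694 and its upper quartile 0.0891, against a median of 0.342 over all tested probe sets. Lower at an unadjusted p under 0.05 were 252 members (94.0%), against 17.9% of the tested probe sets. At an unadjusted p under 0.05 and at least 2-fold lower were 200 members (74.6%), against 518 tested probe sets (3.8%). The counts of called members are therefore no measure of how many were lower, and the heat changes below are values without a passed test unless one is given.

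**Figure D2:**
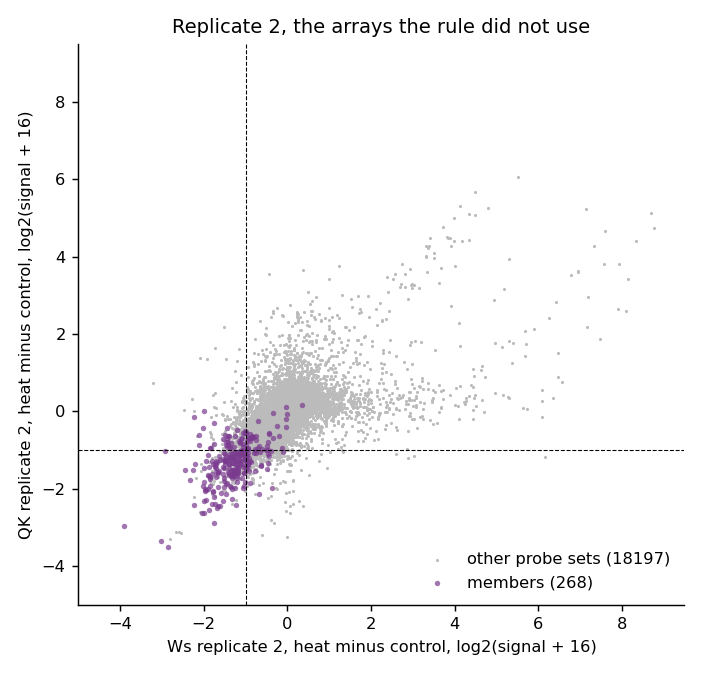
Heat change in replicate 2, Ws on the horizontal and QK on the vertical axis, both as log2(signal + 16), for the 268 members (purple) and the 18197 other probe sets (grey); dashed lines mark -1. Of the members 159 lie below -1 on both axes, while the far raised probe sets at the upper right hold no member.

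Among the named genes with the largest heat changes in replicate 2 was DRT100, which encodes a secreted leucine-rich repeat protein. Its signal went from 1801.6 to 438.2 in Ws and from 1850.5 to 287.9 in QK, 4.0-fold and 6.14-fold on the scale of signal + 16. In replicate 1 its control and heated signals were 1473.0 and 425.3 in Ws, 1256.6 and 414.4 in QK, and 1313.0 and 291.4 in Col-0. All 5 heated arrays with settled labels lay below all 5 control arrays, and the limma fit of replicate 2 gave a log2 change of -2.31 (SE 0.21, adjusted p = 0.0642). GH9C2, an endoglucanase of glycosyl hydrolase family 9 that cuts beta-glucans of the wall, went from 650.4 to 157.2 in Ws and from 888.1 to 169.1 in QK. In replicate 1 its signals were lower throughout, 244.1 and 32.1 in Ws and 248.9 and 74.6 in QK. The replicates differed in level, each pair showed the lower signal after heat, and the heated arrays of replicate 2 still lay below the control arrays of replicate 1.

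AT3G28040, a leucine-rich repeat receptor-like kinase, was also lower after heat in each pair: 340.5 to 76.0 in Ws and 371.4 to 78.0 in QK in replicate 2, after 162.1 to 39.5 and 178.2 to 48.2 in replicate 1. Its heat changes in replicate 2, -1.95 and -2.04, differed by 0.09 between the lines. AT1G28400 had a difference of the same size, with -1.96 in Ws and -2.05 in QK. In others of the 12 genes with the lowest means QK lay deeper: AT5G12940, a leucine-rich repeat protein, had -1.61 in Ws and -2.45 in QK, AT2G04570, a GDSL lipase, -1.66 and -2.44, and AT3G54200 -1.54 and -2.31. These differences between lines rest on 1 pair of arrays each and were not tested.

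**Figure D3:**
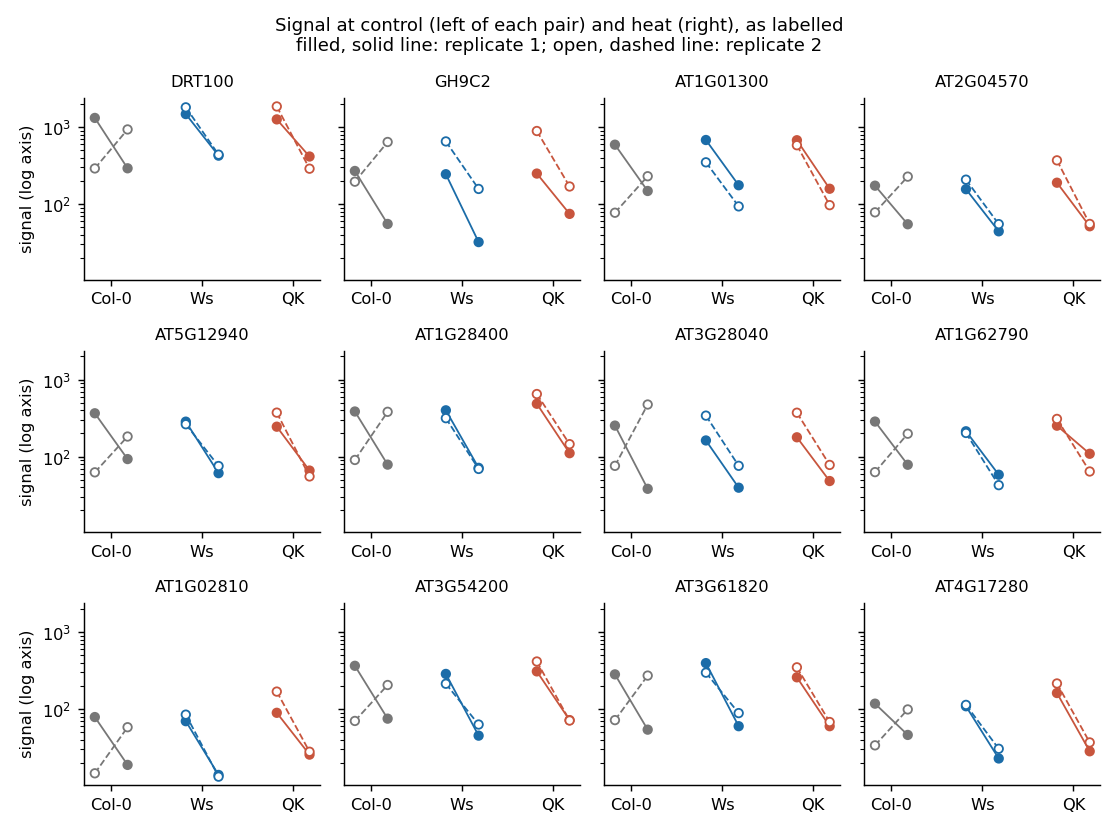
Signal (log axis) at control and heat, as labelled, of the 12 single-gene members with the lowest mean heat change in replicate 2, 1 panel per gene; filled points and solid lines are replicate 1, open points and dashed lines replicate 2. Every Ws and QK line falls in both replicates, and the open Col-0 points rise in each of the 12 panels.

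The roles that follow come from general knowledge of each gene, were assigned after the members were known, and cover 66 of the 117 single-gene members in 13 groups. Each group holds every member given that role, so the counts describe the members and say nothing on how common a role is among all genes.

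All 5 pepsin-like aspartyl proteases among the members, a family that cuts proteins in the wall and elsewhere, were at least 2-fold lower in Ws and in QK in replicate 2, with median heat changes of -1.74 and -1.62. AT1G01300 went from 348.4 to 93.3 in Ws and from 580.6 to 96.8 in QK. The 5 subtilases, serine proteases of the wall, also met the threshold in both lines, with medians of -1.29 in Ws and -1.58 in QK. They include ARA12, needed in Arabidopsis for the release of seed mucilage, which went from 716.0 to 289.4 in Ws and from 1085.5 to 339.7 in QK, and SBT1.3, which went from 167.4 to 64.4 and from 214.3 to 63.0. ATSBT5.2 had heat changes of -1.34 and -1.17. The 2 cysteine proteases, AT3G43960 and the vacuolar processing enzyme GAMMA-VPE, were less deep: GAMMA-VPE had -0.86 and -0.67, and neither gene met the threshold in both lines.

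Of the members, 8 act on pectin or on its enzymes. All 8, comprising 5 pectin methylesterases, 1 inhibitor of that enzyme (AT1G62770) and 2 pectate lyases, were at least 2-fold lower in both lines of replicate 2, with median heat changes of -1.19 in Ws and -1.69 in QK. The pectin methylesterase AT1G02810 went from 84.9 to 13.3 in Ws and from 169.1 to 28 in QK. The pectate lyase AT3G07010 was 2.50-fold lower in Ws and 4.8-fold lower in QK, and the pectate lyase AT4G24780 had the shallowest heat changes of the 8, -1.0 and -1.07. In Ws these values cluster near the threshold, in QK they spread further below it.

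Of 10 other genes of wall glycans and wall growth, 8 met the threshold in both lines, with medians of -1.28 in Ws and -1.54 in QK. COB, the COBRA protein that orients cellulose deposition in expanding root cells, went from 1074.4 to 457.4 in Ws and from 1131.1 to 365.7 in QK. XTH19, a xyloglucan endotransglucosylase/hydrolase, went from 1092.9 to 494.1 and from 1542.0 to 593.9, and its control signals in replicate 1 were 471.7 and 802.0. AT1G27930, which methylates arabinogalactan sugars, had heat changes of -1.81 and -1.61, and AT1G08280, a galactosyltransferase for arabinogalactans, -1.26 and -1.37. EXPA8, an expansin, missed the threshold in QK with -0.68 (-1.10 in Ws): its control signal in QK was 380.1 in replicate 1 and 1285.9 in replicate 2, and its heated signals were 90.5 and 794.2. AT1G78060, of glycosyl hydrolase family 3, missed it in Ws with -0.98.

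Of the 4 secreted leucine-rich repeat proteins among the members 3 met the threshold in both lines, and AT3G20820 had -1.48 in Ws and -0.87 in QK. Of 7 receptor-like kinases 3 did, among them AT2G26730, which went from 197.0 to 65.1 in Ws and from 225.2 to 61.0 in QK, and AT2G01820, a kinase of the family known for auxin signalling at the surface, with -1.01 and -1.22. AT5G49760, known in Arabidopsis as a sensor of extracellular hydrogen peroxide, had -0.88 and -1.30, while the S-locus-type kinases AT4G27300 and AT1G61360 had -0.71 and -0.24, and -0.43 and -0.55. Of 6 pathogenesis-related and chitinase-like proteins 1 met it in both lines, the thaumatin-like AT2G28790 with -1.26 and -1.99. PR-1-LIKE went from 123.5 to 16.8 in Ws in replicate 1, but its control signal in Ws was 18.9 in replicate 2, and its heat changes there were -0.21 in Ws and -0.63 in QK.

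Class III peroxidases, which make and cross-link radicals in the wall, gave 2 of 3 in both lines. AT5G64110 and AT5G64120 are direct neighbours on the chromosome; AT5G64110 had -1.76 in Ws and -0.85 in QK, and AT5G64120, also called peroxidase 71, -1.09 and -1.0. Of 5 lipid transfer family proteins, small secreted carriers of lipids, 2 met the threshold in both lines, and the deepest was AT1G62790 with -1.90 and -2.02. Both cupins did, of which AT3G10080 had -1.51 and -1.46. Of 5 RING-type ubiquitin ligases 1 did, AT1G71980, with -1.15 in each line, and the brassinosteroid-responsive BRH1 had -1.86 in Ws and -0.94 in QK. None of the 4 membrane transporters met it in both: GTR2, which carries glucosinolates, had -1.44 and -0.92.

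**Figure D4:**
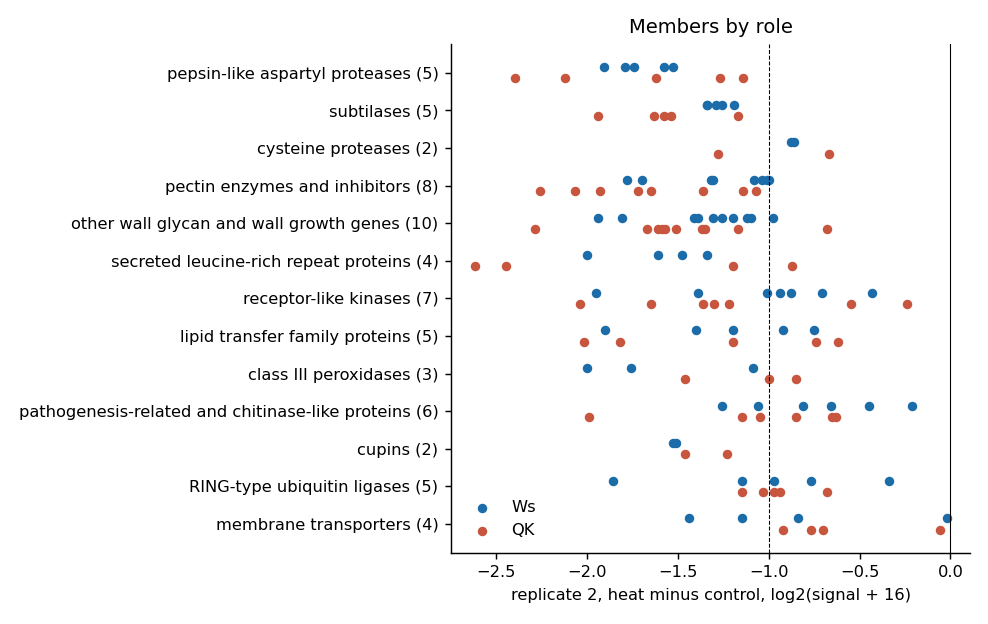
Heat change in replicate 2, log2(signal + 16), of the 66 members with a role, 1 point per gene and line (Ws blue, QK red), with the number of genes in brackets; the dashed line marks -1. The 5 aspartyl proteases, 5 subtilases, 8 pectin genes and 2 cupins lie at or left of it in both lines, while the transporters and pathogenesis-related genes reach towards 0.

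Most members that missed the threshold in both lines of replicate 2 had lower control signals there than in replicate 1. Over the 39 members that missed it in both lines, the median control signal in Ws was 202 in replicate 1 and 82.8 in replicate 2, and in QK 202 and 118. Their median heated signals were 61.5 and 55.9 in Ws and 68.9 and 58.7 in QK. Control was lower in replicate 2 for 34 of the 39 in Ws and 33 in QK. Of the 70 that missed the threshold in 1 line only, it was lower for 44 in Ws and 41 in QK. Of the 159 that met it in both lines, control was lower for 80 in Ws and 66 in QK. The background was 9127 of all 18465 probe sets in Ws and 9715 in QK. Over the 159 at least 2-fold lower in both lines the control medians were 319 and 324 in Ws and 346 and 402 in QK. The heat change contains the control signal, so this split is a description of where the values moved and carries no test.

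**Figure D5:**
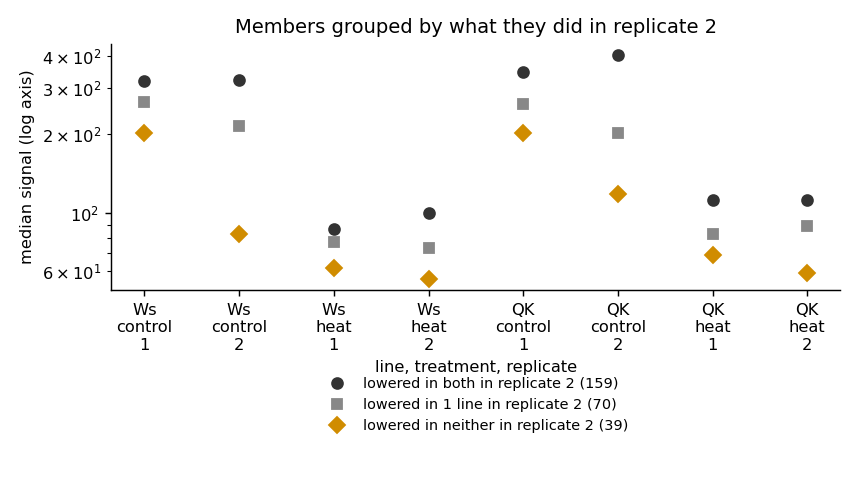
Median signal (log axis) of the members in the Ws and QK arrays, split by whether they met the threshold in both lines (159), in 1 line (70) or in neither (39) in replicate 2. The 159 stay level between control replicates in Ws, at 319 and 324, and the 39 drop between control replicate 1 and control replicate 2, from 202 to 82.8 in Ws.

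The extreme cases were AT2G39920 and AT4G34950. AT2G39920 had control signals of 297.6 in Col-0, 255.2 in Ws and 61.8 in QK in replicate 1, and 13.0 in Ws and 10.4 in QK in replicate 2, with heated signals of 12.5 and 12.6 there. AT4G34950, a transporter of the major facilitator type, had 254.1 and 72.6 in Ws in replicate 1 and 21.2 and 20.8 in replicate 2. In the Col-0 pair labelled replicate 2 both genes were low in both arrays, 10.6 and 13.3 for AT2G39920 and 28.2 and 29.6 for AT4G34950, whichever array was the heated one. AT1G19370 and AT5G50450 complete the 4 with the highest means, -0.11 and -0.19 in the limma fit of replicate 2 (adjusted p = 0.625 and 0.448).

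Between Ws and QK in replicate 2, QK lay deeper for 148 members and Ws for 120, and the difference QK minus Ws had a median of -0.07 (0.02 over all probe sets) and ranged from -1.61 to 2.1. For 255 of 268 (95.1%) it was smaller than 1 log2 unit, as for 95.0% of all probe sets. Across the 268 members the heat changes of both lines correlated with Pearson's r of 0.53 and Spearman's rho of 0.46, and across all probe sets with r of 0.61. Members share the same 4 arrays and a replicate, so these are descriptions. The mean heat change of replicate 1 and that of replicate 2 correlated with r of 0.55 across members. With 1 pair per line the difference in response between lines has no test on arrays outside the rule, and these values do not show that the lines respond alike.

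The mean level over control and heat, which the rule did not use, was compared between lines on 6 means, 1 per line and replicate. This mean does not depend on which array of the pair labelled Col-0 replicate 2 is the heated one. In QK against Ws limma called 0 of the 268 members higher (background 0.492%) and 0 lower (background 0.726%), with 28 members higher (10.4%, background 6.32%) and 8 lower (2.99%, background 5.42%) at an unadjusted p under 0.05. With the replicate number as a block it called 6 higher and 1 lower in QK than in Ws, where 2.13% and 1.89% of all tested probe sets were called. The median difference was 0.13 over members and 0.02 over all tested probe sets. In QK against Col-0 it called 1 higher (background 0.594%) and 1 lower (background 0.888%), with 30 higher (background 7.69%) and 11 lower (background 5.84%) at an unadjusted p under 0.05. In Ws against Col-0 it called 0 higher (background 0.00734%) and 0 lower (background 0.103%), with 11 higher (background 2.6%) and 10 lower (background 2.68%) at an unadjusted p under 0.05, and with the block 1 higher and 3 lower (0.293% and 0.47% of all).

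The higher one was ATPMEPCRB, the pectin methylesterase 41. Its signals were 124.4 and 52.6 in QK control and heat in replicate 1 and 142.8 and 45.8 in replicate 2, against 61.1 and 10.5 in Col-0 replicate 1 and 11.8 and 45.2 in the pair labelled replicate 2. In each replicate the brighter QK array lay above the brighter Col-0 array and the dimmer above the dimmer, and the log2 difference was 1.19 (SE 0.14, limma adjusted p = 0.0335). The lower one was AT4G22490, of the lipid transfer family. Its signals were 533.6 and 240.1 in QK replicate 1 and 478.4 and 305.0 in replicate 2, against 1592.0 and 724.8 in Col-0 replicate 1 and 662.3 and 1327.2 in the pair labelled replicate 2. All 4 QK arrays lay below all 4 Col-0 arrays, with a log2 difference of -1.40 (SE 0.18, limma adjusted p = 0.0417). With 1 pair of arrays left out, whichever it was, neither was called, the pair labelled Col-0 replicate 2 included. Such a fit leaves 1 line with a single mean. Without a pair of Col-0 or of Ws the fit lost its calls over the whole table here, so those losses say little on these 2 genes. Without a pair of QK it still called other probe sets but not these 2, so both calls rest on having both QK pairs. With the replicate number as a block limma called 7 members higher and 6 lower, near the shares of all tested probe sets in that fit (2.37% and 2.29%).

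AT5G64120 had the largest difference between QK and Ws among members, 2.68, without passing the test (SE 0.82, limma adjusted p = 0.283). Its control and heated signals were 2037.0 and 497.8 in QK replicate 1 and 728.9 and 356.1 in replicate 2. In Ws they were 520.8 and 81.3, and then 67.6 and 23.4. QK was above Ws in each of the 4 matched comparisons, while the Ws pair means of log2(signal + 16) were 7.84 and 5.84, so replicates of a line also lay far apart.

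Other genes of the members' families were listed by symbol or synonym, not by value. These lists are incomplete: they hold 2 of the 5 member subtilases and 1 of the 3 member peroxidases given above, and no pectate lyase, lipid transfer protein or receptor kinase. A limma fit of the mean heat effect of Ws and QK over all 8 of their arrays, which include replicate 1, called 383 of 13631 probe sets lowered (2.81%) and 374 raised (2.74%). This fit holds the arrays that chose the members, so it is a description for the 9 family genes that passed the rule, 6 of which it called lowered. Of the other 147 family genes it called 6 lowered (4.08%) and 4 raised. The 383 lowered probe sets include 197 members, and the 147 hold none, so 2.81% is not a like share for them. Among 12 tested expansins EXPA7 and EXPA4 were lowered, with log2 changes of -1.04 and -1.35 (limma adjusted p = 0.0196 and 0.0464), and the median was -0.65. Neither call was firm: 0 expansins were called with a pseudocount of 64, with quantile scaling, or without any 1 of 6 arrays (control replicate 2, heat replicate 1 or heat replicate 2 of Ws or of QK), 1 without Ws control replicate 1, and 4 with the replicate block. Among 6 listed subtilases the log2 change ranged from -2.43 for SBT4.12, which had passed the rule and was left out, to 0.27 for SBT3.5, and S1P, the site-1 protease, had 0.01. The pectin methylesterase PMEPCRF, no member, had heat changes of -0.76 in Ws and -0.72 in QK in replicate 2 and was not called (log2 -0.63, limma adjusted p = 0.334).

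Of 6 cellulose synthase and cellulose synthase-like genes CSLD2, CSLC5 and CSLC04 were lowered by limma (log2 -1.01, -1.13 and -1.09, adjusted p = 0.0107, 0.0178 and 0.00304), and none is a member. Their count was 0 with a pseudocount of 64 and 1 without Ws heat replicate 1, QK control replicate 2 or QK heat replicate 2. Of 6 class III peroxidases PRXR1, no member, was lowered (-1.04, limma adjusted p = 0.0386), and no peroxidase was called when any 1 of 7 arrays was left out, while 2 were without Ws control replicate 2 and 3 with the replicate block. Of 7 xyloglucan endotransglucosylase/hydrolases limma called 0 lowered (3 lower at an unadjusted p under 0.05) and 2 raised, XTH16 (1.18, adjusted p = 0.0102) and XTH33 (1.01, adjusted p = 0.0249). Without any 1 array other than Ws control replicate 2, or with a pseudocount of 64, 1 of them was called. XTH33 had heat changes of 0.23 and -0.66 in Ws and 2.16 and 2.33 in QK, and the difference between lines was not tested here. Of 28 UDP-glycosyltransferases, 10 cytochromes P450, 9 glutathione transferases, 8 tubulins, 7 histones and 15 ribosomal proteins, 14 of these encoded in the plastid genome, limma called 0 in either direction (10 lower and 8 higher at an unadjusted p under 0.05), and their family medians lay between -0.38 and 0.02.

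The summed signal of the 5 root markers was lower after heat. It was 4117.7 to 5291.9 in the control arrays of Ws and 1555.8 to 1921.8 in the heated ones, 6460.2 to 7289.5 and 3494.5 to 3859.5 in QK, and 6459.5 and 2979.5 in Col-0 replicate 1. Of this sum 89.1 to 95.3% in each array was PYK10, a glucosidase gene named for leaving out of the members, with 3710.6 and 4907.8 in control Ws and 1405.8 and 1740.0 in heated Ws. AT5G66390, EXPA7 and EXPA18 were dimmer and also lower in both heated arrays than in both control arrays of Ws and of QK, and XTH21 stayed between 9.6 and 17.1. The shoot marker RCA had 12234.9 and 14175.2 in control Ws and 9665.7 and 11291.9 in heated Ws, replicate 1 first. In QK it had 12063.4 and 13775.9 in control and 9905.4 and 12768.4 after heat. It was lower after heat within each replicate of both lines, though in QK the ranges over both replicates overlapped. The part of such shifts in the members' values was not tested, and in whole seedlings fewer cells of a type and less RNA per cell cannot be told apart.

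By position the members were spread like the measured genes: chromosome 1 held 26.5% of the 117 and 26.2% of the measured genes, and chromosome 5 held 23.9% and 23.3%. With no background counted, 8 of the 117 formed 4 pairs with at most 1 gene between them, in the gene order of assembly TAIR10.1. These are the peroxidases AT5G64110 and AT5G64120, AT2G19970 with PR-1-LIKE, AT4G20860 with AT4G20880, and AT1G62770 with AT1G62790. Within the last pair the heat changes in replicate 2 were -1.01 and -1.14 for AT1G62770 and -1.90 and -2.02 for AT1G62790, so the neighbours differed in depth in both lines.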

How the data were processed

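The deposited values are signal intensity, not logged, of every probe set on each array, made by the authors from biotin-labelled cRNA on Affymetrix arrays, and GCOS 1.4 is named per the submitters' processing notes; the summary algorithm and scaling are not given in the sources used here. No further normalization was applied. The members and lists were chosen with earlier results of these data known. Signals were transformed as log2(signal + 16), so folds are of signal plus 16 and understate changes of dim probe sets. The precision of every value is limited by 2 arrays per group. P-values set each effect against the residual spread of its own fit to these samples. In the main fits of levels and of all 8 arrays of Ws and QK, that spread is between replicates of a line. In the heat fit of replicate 2 it only reflects how far apart Ws and QK responded, as each line has 1 pair there.

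Tests used limma 3.58.1 in R 4.3.3 with a mean-variance trend, two-sided, with Benjamini-Hochberg adjustment across the 13631 probe sets above the 35th percentile of their array in at least 2 arrays, called at an adjusted p under 0.05 and 2-fold. Residual degrees of freedom were 1 for heat in replicate 2, 3 for levels and 4 for the 8-array fit. The scripts were tested on simulated data. There the heat fit of replicate 2 recovered the size of a 4-fold change but called none of the changed probe sets, so its count of calls says little. Named genes are the 12 lowest and 4 highest single-gene members by mean heat change in replicate 2, 2 genes on each side of the threshold, members called between lines (up to 4 each way) and members of families that hold at least 2; genes named by role were chosen after their values were seen. Families were matched by symbol or synonym in the reference table, and all 117 genes matched it. Promoter motifs were not analysed here. Alternatives were pseudocounts of 1 and 64, quantile and 75th-percentile scaling, other filters and thresholds, no trend, the replicate block and leaving out arrays.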

Additional observations from a re-analysis of the deposited data

Results flagged for a closer look

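In the pair of arrays labelled Col-0 replicate 2, which the main heat results do not use, 264 of the 268 members were brighter in the array labelled heat than in the array labelled control, opposite to the direction in replicate 1 of Col-0. GH9C2 gave 195.3 signal units under the control label and 639.6 under the heat label, and DRT100 had 290.0 and 930.8. The values are given as labelled.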

How the results depend on the processing

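The count of members at least 2-fold lower in both lines of replicate 2 was 159 (background 1.84%). It was 154 with quantile scaling and 157 with 75th-percentile scaling (background 1.75% each). With a pseudocount of 1 it was 185 (background 2.78%), and with 64 it was 96 (background 0.861%). At 1.5-fold it was 233, with no background counted, and at 4-fold 7 (background 0.0704%). In QK alone it was 192 (background 3.68%) and in Ws alone 196 (background 3.48%). The rule itself would give 421 members with a pseudocount of 1 and 106 with 64, alternatives added after the data were seen. None of 296 values for 74 named members changed sign, with either pseudocount or either scaling. A pseudocount cannot change the sign of a heat change within a line. For members with the same sign in both lines, only the scalings could have changed it. The 1 member and 1 lowered and 28 raised probe sets called in replicate 2 became 19, 35 and 56 with a pseudocount of 1, and 0, 0 and 0 with a pseudocount of 64 and with 75th-percentile scaling. All 6 arrays of replicate 2 by limma also gave 0, 0 and 0 (then 2 lower and 7 higher at an unadjusted p under 0.05). That fit adds the pair labelled Col-0 replicate 2, where 264 members went the other way, so it is no test of the processing. With the replicate block 6 members were higher and 1 lower in QK than in Ws (2.13% and 1.89% of all tested probe sets), 7 and 6 in QK than in Col-0 (2.37% and 2.29%), and 1 and 3 in Ws than in Col-0 (0.293% and 0.47%); group means of 8 arrays gave 3 higher in QK than in Ws (1.5% of all). ATPMEPCRB was not called with a pseudocount of 64 or the filter at the 50th percentile (0 members higher than in Col-0). Leaving out 1 line and replicate leaves that line a single mean, and no member was then called in any comparison of levels by limma. Without a pair of Col-0 or of Ws, QK against Col-0 lost its calls over the whole table, so those losses carry no verdict on single genes. Without a pair of QK other probe sets were still called in QK against Col-0, but no member. Family genes lowered were 12, of which 6 had passed the rule, 18 with the replicate block, 5 with a pseudocount of 64, 19 with no fold threshold and 7 to 13 with 1 array left out (7 without Ws heat replicate 1, QK control replicate 2 or QK heat replicate 2); raised were 4, 2 with a pseudocount of 64 and 1 to 4 with 1 array left out (2 without Ws heat replicate 2, 1 without QK heat replicate 2). The cause of these changes was not tested. The replicate numbers come from the labels alone: differences between replicates correlated between groups of Ws and QK with r of 0.587 to 0.807, which is a hint from the data, not the design. Dim arrays limit members whose heated signal nears 16, where the added 16 sets the size of the change.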

Other observations

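A few members, chosen after their values were seen, differed most between the lines in replicate 2, with 1 pair of arrays each and no test. AT1G26920 went from 482.5 to 89.3 in Ws and from 198.5 to 177.7 in QK, and AT2G47440 from 674.7 to 188.3 and from 290.6 to 231.9. In replicate 1 the same genes had heat changes of -1.46 and -1.22 in Ws and -1.86 and -1.89 in QK. AT5G66650, of the mitochondrial calcium uniporter family, had the opposite order in replicate 2, with -0.67 in Ws and -2.14 in QK.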
